A study of Populus trichocarpa with 9 samples.

Results

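The comparison is between stem differentiating xylem of Populus trichocarpa after 7 days of bending and after 3 days of bending. Its members are the 3 libraries titled day 7 and the 3 titled day 3, which are 6 of the 9 libraries of the series, and the remaining 3, from unbent stems, were not compared. All 6 came from clonal wild-type trees of the genotype Nisqually-1, about 6 months old, whose stems were held at 90 degrees to the upright. Differentiating xylem, the soft tissue just inside the bark in which wood cells enlarge and build their walls, was scraped from the upper side of the stem. No unbent stem of day 3 or day 7 was used, so 4 more days of bending and 4 more days of growth cannot be told apart. The labels do not say whether the 3 libraries of a group came from separate trees. The study speaks of biological replicates where it shows expression in bent stems. The p-values reflect how much these samples vary within a group, and that may be technical.

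Trees right a bent stem by making reaction wood. In poplar this is tension wood, formed on the upper side, and it is known for fibres with an inner gelatinous layer that is rich in cellulose and poor in lignin. Lignin is polymerised from monolignols, alcohols made from phenylalanine through a chain of enzymes. Cellulose of the secondary wall is spun at the plasma membrane by complexes of cellulose synthases (CesA proteins). The study named 31 genes of this wood programme. They comprise 22 monolignol genes, 5 secondary wall CesA genes, 2 genes of hemicellulose synthesis and 2 transcription factors, PtrHSFB3-1 and PtrMYB092. All 31 were expressed strongly enough to be tested. The other gene models carry only Potri identifiers, with no name or description in the files used here.

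Several of the named genes are close copies, and the study's RT-qPCR primers show where they can be told apart. The forward primers of 3 pairs are shown because the results below turn on these copies. Capitals mark bases that differ from the other member of the pair or have no counterpart in it.
PtrPAL1 (Potri.006G126800): CcatccaggtcaaattgaggctgcT
PtrPAL3 (Potri.016G091100): catccaggtcaaattgaggctgcA
PtrPAL4 (Potri.010G224100): gagatgctggaagctatcaccaaAT
PtrPAL5 (Potri.010G224200): gagatgctggaagctatcaccaaGC
PtrCesA8 (Potri.011G069600): gttggcctctgtcttctctcttgtC
PtrCesA18 (Potri.004G059600): gttggcctctgtcttctctcttgtT

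The PtrPAL4 and PtrPAL5 primers shared 23 of 25 bases, and their reverse primers were the same sequence, ggctctccattgggtccaact. The PtrCesA8 and PtrCesA18 primers shared 24 of 25. How reads that fit more than one gene were counted is not given in the sources used here, so values of single members of such pairs are uncertain. Sums over the pair are less exposed to that choice.

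The deposited table held 20888144 to 29539805 counts per library. Levels are given as CPM, the counts of a gene scaled to a common library size with TMM factors, which even out differences in composition, and 1 count was worth 0.0379 to 0.0467 CPM. CPM is not adjusted for gene length, so differences are taken between libraries for the same gene. Classes, ranks and ratios of CPM across genes also reflect gene length. One 3-day library, replicate 2, lay nearer to the 7-day libraries than the other 2 of its group did. On the first principal component of log2 CPM, which held 39.6% of the variance, 3-day replicates 1 and 3 lay at -62.8 and -68.9 and the 7-day libraries at 28.7 to 59.2. The value of 3-day replicate 2 was -1.81. Its Pearson correlation with 7-day replicate 2 was 0.974, above that of every pair of libraries within a group (0.940 to 0.971). Within the 3-day group it was not the most distant library. Replicate 1 correlated with replicate 2 by 0.954 and with replicate 3 by 0.947, and replicates 2 and 3 by 0.940. In the plot of the principal components the 2 libraries numbered 2 sit next to each other at the top. Neither the labels nor the files allow a check of whether 3-day replicate 2 is the sample its title names, and it was kept under its label. If it were not, every 3-day mean and every log2 fold change below would shift. Results are therefore also given for each same-numbered pair of libraries and without the libraries numbered 2, a choice made after seeing the data.

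**Figure D1:**
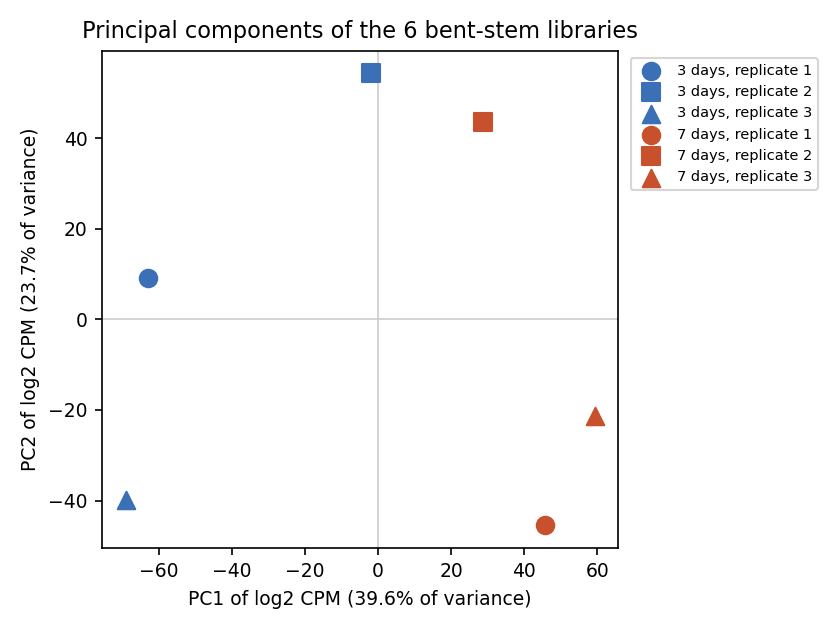
First principal component of log2 CPM (39.6% of the variance, x axis) against the second (23.7%, y axis) for the 6 libraries, with colour for days of bending and shape for replicate number. The 7-day libraries lie at 28.7 to 59.2 on the first component, 3-day replicates 1 and 3 at -62.8 and -68.9, and 3-day replicate 2 between them at -1.81.

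The first question was how far the whole transcriptome differed between day 3 and day 7. Of 41335 gene models, 26937 had enough counts to be tested. With edgeR's quasi-likelihood test, 0 genes passed a Benjamini-Hochberg adjusted p of 0.05, in either direction, and no adjusted p was below 0.188. The same test gave 5303 genes (19.7%) at an unadjusted p under 0.05, where uniform p-values would give 5%. Of these, 2560 (9.5%) were higher and 2743 (10.2%) were lower at 7 days. This split depended on the processing. Without scaling factors it was 1365 higher and 4593 lower, and the median over all genes moved by -0.18 on the log2 scale. With RLE factors, another way of scaling, it was 2857 higher and 2427 lower. With all 9 libraries in the fit it was 3114 higher and 2503 lower. The total of 5303 depended on single libraries. It fell to 3179 when 3-day replicate 1 was left out, and to 3285 and 2498 when 7-day replicates 1 and 3 were.

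The other 2 tests gave calls from the same counts. edgeR's exact test called 882 genes (3.27%), 488 higher (1.81%) and 394 lower (1.46%). DESeq2 called 1494 of the 25425 genes to which it gave an adjusted p (5.88%), 930 higher (3.66%) and 564 lower (2.22%). Both called 843 genes, which is 95.6% of the exact test's list and 56.4% of the DESeq2 list, and in 830 of these the 3 libraries of one group all lay above the 3 of the other. Over all genes tested, the groups failed to overlap in 6999 (26%), with 12.8% higher and 13.1% lower at 7 days. In the text that follows, a gene said to be called by the exact test or by DESeq2 did not pass the quasi-likelihood test, which called 0.

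The sizes of the differences leaned towards lower values at 7 days. Fitted values were more than 2-fold lower in 1486 genes (5.52%) and more than 2-fold higher in 738 (2.74%). Beyond 4-fold the counts were 162 lower (0.601%) and 75 higher (0.278%). Negative values were found in 55.3% of genes, the median log2 fold change was -0.06 (-0.03 with RLE factors), and the 5th and 95th percentiles were -1.04 and 0.79. Complete switches were rare. Only 7 genes had 0 counts in every 3-day library and at least 3 in every 7-day library, and 21 showed the opposite pattern, none of them above a group mean of 1.08 CPM.

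Fold changes at 7 against 3 days grew with expression level. The 1686 genes with a mean of 100 to 1000 CPM had a median log2 fold change of 0.20, and the 78 genes over 1000 CPM had a median of 0.66. The 6553 genes between 1 and 5 CPM had a median of -0.23. Without scaling factors these medians were 0.02, 0.48 and -0.41, so the order held while the level at which the sign turned moved up, and between 20 and 100 CPM the median turned from 0.05 to -0.13. The share of genes that were higher at an unadjusted p under 0.05 was 4.29% under 1 CPM and 32.1% over 1000 CPM. The share that were lower was also larger in the top class, 15.4% against 6.12%. The 10 genes with most counts took 4.27%, 5.41% and 3.61% of the counts in 3-day replicates 1 to 3 and 7.18%, 6.55% and 6.95% in 7-day replicates 1 to 3. The groups did not overlap in this share.

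The gradient was present in the pairs numbered 1 and 3 and not in the pair numbered 2. Over 1000 CPM the median log2 ratio of day 7 to day 3 was 0.87 in pair 1, 0.04 in pair 2 and 1.14 in pair 3. Between 1 and 5 CPM it was -0.30, 0.01 and -0.29. The spread of log2 ratios over all genes was also narrower in pair 2, with an SD of 0.52 against 0.81 and 0.86. More than 2-fold differences that held in all 3 pairs were seen in 91 genes (0.338%) that were higher and 143 (0.531%) that were lower at 7 days. None of the 31 wood genes was among them, which at shares this small says little about a list of that size.

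**Figure D2:**
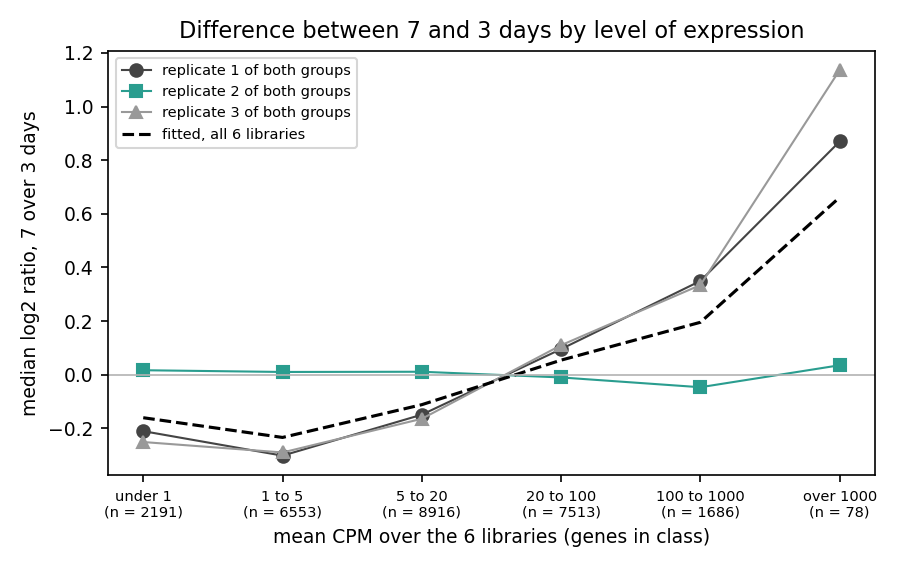
Median log2 ratio of 7-day to 3-day CPM (y axis) in 6 classes of mean CPM (x axis, with the number of genes in each), for each same-numbered pair of libraries and for the fit of all 6. Pairs 1 and 3 run from -0.21 and -0.25 in the lowest class to 0.87 and 1.14 in the highest, whereas pair 2 stays between -0.05 and 0.04.

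The transcription factors were examined first among the wood genes. PtrHSFB3-1 is a heat shock factor-type regulator, and its level was 7.44, 7.81 and 3.78 CPM in the 3-day libraries (replicates 1 to 3, the order used throughout) and 7.27, 6.02 and 6.03 CPM in the 7-day libraries. The groups overlapped, and the log2 fold change was 0.02 with a 95% interval of -0.68 to 0.72. Its sign turned to -0.24 without 3-day replicate 3, to -0.07 without 7-day replicate 1 and to -0.15 without scaling factors. PtrMYB092 belongs to the MYB family, whose members include activators of secondary wall genes. Its levels were 26.5, 28.1 and 26.1 CPM at 3 days and 24.1, 26.1 and 13.5 CPM at 7 days. All 7-day values were the lower ones, but the nearest libraries of the groups both rounded to 26.1 CPM. The log2 fold change was -0.34 (95% interval -0.90 to 0.22, adjusted p = 0.438).

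Monolignol genes were mostly higher at 7 days, and none passed the quasi-likelihood test. Of 22 genes, 19 had a positive log2 fold change, against 44.7% of all genes, and the median was 0.75 against -0.06. At an unadjusted p under 0.05, 9 were higher (40.9%, against 9.5% of all genes) and 1 was lower (4.55%, against 10.2%). The exact test called 3 as higher (13.6%, against 1.81%). DESeq2 called 6 of the 22 as higher, against 3.66% of all genes, and neither test called any as lower. Most are highly expressed, and 17 of the 22 lay between 100 and 1000 CPM. In that class 15 of the 17 were positive (all genes 66.3%), their median was 0.69 (all genes 0.20) and 5 were higher at an unadjusted p under 0.05 (29.4%, all genes 23.9%). Calls of the exact test also grew with level. It called 98 of all 1686 genes of that class as higher, with PtrCCoAOMT1 the only monolignol gene among them, and 11 of the 78 genes over 1000 CPM. The shares over all genes are therefore a low standard for its 3 monolignol calls. Together these genes took 0.961%, 1.26% and 0.844% of all counts at 3 days and 1.69%, 1.20% and 1.65% at 7 days, so 3-day replicate 2 lay above 7-day replicate 2 and the groups overlapped. In bulk tissue, a change in the number of cells of a type and a change in RNA per cell cannot be told apart.

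The entry into the pathway is phenylalanine ammonia-lyase (PAL), which removes the amino group of phenylalanine. Its 5 genes fell into 2 sets that differed in opposite directions. PtrPAL4 was at 557, 842 and 319.6 CPM at 3 days and at 1653, 838 and 1415 CPM at 7 days, a log2 fold change of 1.18 (SE 0.42). PtrPAL5 was at 362, 551 and 209 CPM and then at 1107, 538 and 964 CPM, a log2 fold change of 1.22 (SE 0.42). In both genes the groups overlapped because 3-day replicate 2 slightly exceeded 7-day replicate 2. DESeq2 called both (adjusted p = 0.0396 and 0.0377) and the exact test neither (0.0804 and 0.0771). PtrPAL2 was at 203, 371 and 142 CPM and then at 548, 336 and 425 CPM, a log2 fold change of 0.87 (SE 0.38) that no test called.

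PtrPAL1 and PtrPAL3 were lower at 7 days. PtrPAL1 was at 315, 346 and 478 CPM at 3 days and at 297, 245 and 184 CPM at 7 days, without overlap, and its log2 fold change was -0.65 (SE 0.26, adjusted p = 0.234). It was the single monolignol gene that was lower at an unadjusted p under 0.05. PtrPAL3 was at 168, 148 and 232 CPM and then at 161, 123 and 74.5 CPM, with overlap and a log2 fold change of -0.61 (SE 0.31). Both were lower in each of the 3 same-numbered pairs, as were 26.1% of all genes. The pair numbered 3 differed most, by -1.38 and -1.64. No test called either gene.

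The balance between the 2 sets restates these directions in each library, and since the sets were formed by direction in the same libraries, it is given without a test. The summed CPM of PtrPAL2, PtrPAL4 and PtrPAL5 over that of PtrPAL1 and PtrPAL3 was 2.32, 3.57 and 0.945 at 3 days and 7.23, 4.65 and 10.8 at 7 days. The means were 2.28 ± 1.31 and 7.57 ± 3.11 (SD, n = 3 each), and the ratio was higher at 7 days in pair 2 as well as in the other pairs. The ratio of PtrPAL4 to PtrPAL5, by contrast, ran only from 1.47 to 1.56 over the 6 libraries. These 2 genes have neighbouring identifiers and near-identical primers, and the part of shared reads in this value was not tested.

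**Figure D3:**
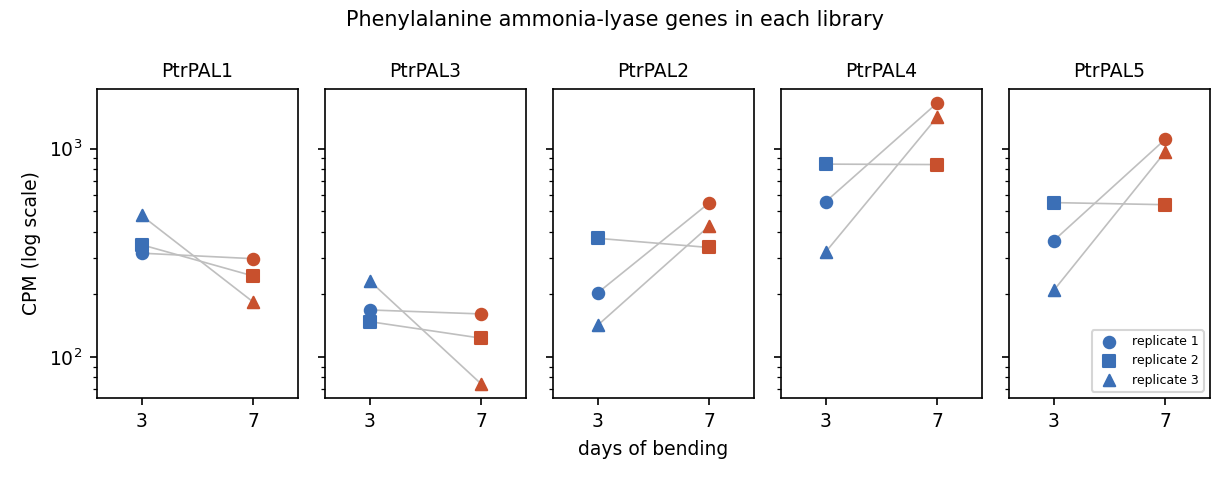
CPM of the 5 PAL genes (y axis, log scale) at 3 and 7 days of bending (x axis), 1 point per library, with lines joining libraries of the same replicate number. PtrPAL1 and PtrPAL3 are lower at 7 days in all 3 pairs, and PtrPAL2, PtrPAL4 and PtrPAL5 are higher in pairs 1 and 3 and nearly level or lower in pair 2, as in PtrPAL4 with 842 and 838 CPM.

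After PAL come cinnamate hydroxylase (C4H), which oxidises the ring, and 4CL, the ligase that activates the acid with coenzyme A. PtrC4H1 was at 530.0, 867 and 427 CPM at 3 days and at 1434, 835 and 1448 CPM at 7 days. Its log2 fold change was 1.03 (SE 0.36), it was called by DESeq2 (adjusted p = 0.0391) and not by the exact test (0.0769), and the groups overlapped through the libraries numbered 2. PtrC4H2 had a log2 fold change of 0.75 and Ptr4CL3 one of 0.80, with 95% intervals that reached slightly below 0 (-0.08 and -0.07). Ptr4CL5 was near level at -0.08, and it turned positive, to 0.16 and 0.17, without replicate 3 of the 3-day or of the 7-day group.

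The middle of the pathway adds a second ring oxygen through shikimate esters. PtrHCT1 and PtrHCT6 encode acyltransferases that make such esters, PtrC3H3 the hydroxylase that acts on them, and PtrCSE1 and PtrCSE2 esterases that release caffeic acid. PtrCSE2 was at 65.3, 74.97 and 54.2 CPM at 3 days and at 142, 97.6 and 163 CPM at 7 days. Every 7-day library was above every 3-day library, pair 2 included, and the mean went from 64.8 ± 10.4 to 134 ± 33.4 CPM (SD, n = 3 each). Its log2 fold change was 1.05 (SE 0.23), with an adjusted p of 0.188 by the quasi-likelihood test, 0.00772 by the exact test and 0.00316 by DESeq2. Of the 31 wood genes it had the smallest p in each of the 3 tests. PtrCSE1 (0.69) and PtrHCT6 (0.76) passed an unadjusted p of 0.05, PtrC3H3 (0.56) did not, and PtrHCT1 was near level at 0.07, with a sign that turned without scaling factors (-0.092) and without single libraries.

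Methylation of the ring and reduction to the alcohol complete the pathway. PtrCCoAOMT1, a methyltransferase that acts on caffeoyl-CoA, was at 580.1, 746 and 539.7 CPM at 3 days and at 1398, 790.4 and 1418 CPM at 7 days. PtrCAD1, the dehydrogenase of the last step, was at 1179.6, 1685 and 1028 CPM and then at 2604, 2179 and 2714 CPM. In both genes the groups did not overlap and pair 2 was higher at 7 days too, by 0.08 and 0.37 on the log2 scale. The log2 fold changes were 0.95 (SE 0.31) for PtrCCoAOMT1 and 0.95 (SE 0.31) for PtrCAD1. Both were called by the exact test (adjusted p = 0.0475 and 0.0223) and by DESeq2 (0.0195 and 0.00476).

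The other genes of these late steps were higher at 7 days with wider spread. PtrAldOMT2, the methyltransferase of the syringyl branch, had a log2 fold change of 0.85 (SE 0.36), which passed an unadjusted threshold of 0.05 and no adjusted one. PtrCAld5H1, a hydroxylase that leads to syringyl units, had 0.96, and its copy PtrCAld5H2 had 0.32. PtrCCoAOMT2, PtrCCoAOMT3 and the reductase PtrCCR2 had 0.38, 0.55 and 0.43. All 6 genes had lower CPM at 7 days in the pair numbered 2.

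**Figure D4:**
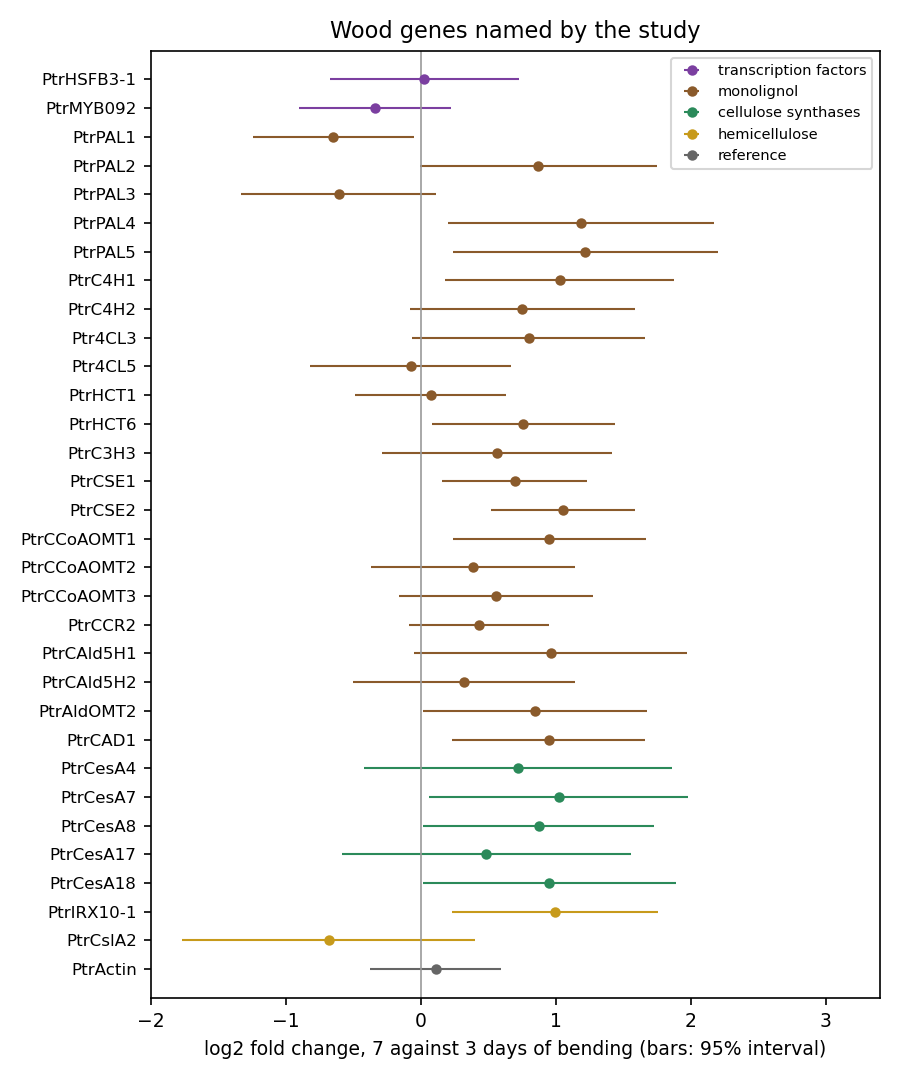
Log2 fold change of CPM at 7 against 3 days (x axis) for the 31 wood genes and PtrActin (y axis), from the quasi-likelihood fit of 6 libraries, with bars for the 95% interval and colour for the group of genes. Of the 31, 26 points lie above 0, with PtrPAL1, PtrPAL3, PtrCslA2, PtrMYB092 and Ptr4CL5 below it.

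All 5 secondary wall cellulose synthase genes had positive log2 fold changes, with a median of 0.87 against -0.06 over all genes. They are also highly expressed, with 3 of them over 1000 CPM, where the median of all genes was 0.66 and 76.9% were positive, against a median of 0.95 for the 3. PtrCesA18 was at 2515, 3710.3 and 1701 CPM at 3 days and at 5664, 4108 and 5527 CPM at 7 days. It was the only one whose groups did not overlap, with a log2 fold change of 0.95 (SE 0.40), and the only one called by DESeq2 (adjusted p = 0.0379; 0.0802 by the exact test). PtrCesA7 (1.02, SE 0.41) and PtrCesA8 (0.87, SE 0.37) passed an unadjusted p of 0.05 only. PtrCesA4 (0.72, SE 0.49) and PtrCesA17 (0.48, SE 0.46) did not. Together the 5 genes took 0.557%, 0.829% and 0.365% of all counts at 3 days and 1.07%, 0.781% and 1.02% at 7 days, and again only replicate 2 of the 3-day group overlapped with the 7-day group.

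Ratios between copies of this family were also followed. The ratio of PtrCesA18 to PtrCesA8 was 7.67 ± 0.90 at 3 days and 8.22 ± 1.19 at 7 days (SD, n = 3 each), with overlap. The ratio of PtrCesA7 to PtrCesA17 was 2.18, 1.80 and 2.60 at 3 days and 3.01, 2.77 and 3.00 at 7 days, without overlap. It was 1 of 8 ratios computed. A two-sided exact permutation test cannot decide on it, because its p of 0.1 is the smallest that 3 libraries against 3 can give.

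The 2 hemicellulose genes differed in opposite directions. PtrIRX10-1, of a family of xylan synthesis enzymes, was at 637, 856 and 471 CPM at 3 days and at 1413, 927 and 1564 CPM at 7 days, without overlap. Its log2 fold change was 0.99 (SE 0.33), called by DESeq2 (adjusted p = 0.0233) and just missed by the exact test (0.0520). PtrCslA2, of the family that makes glucomannan backbones, was at 87.2, 66.9 and 42.02 CPM and then at 65.2, 39.1 and 17.5 CPM. The groups overlapped, the log2 fold change was -0.69 (95% interval -1.77 to 0.40), and no test called it. PtrCslA2 was lower at 7 days in each same-numbered pair, as were 26.1% of all genes. The ratio of PtrIRX10-1 to PtrCslA2 was 7.31, 12.8 and 11.2 at 3 days and 21.7, 23.7 and 89.3 at 7 days. It restates the opposite directions of the 2 genes and is given without a test.

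Over all 31 wood genes, 26 were higher at 7 days in pair 1, 5 in pair 2 and 26 in pair 3. The median log2 ratios were 1.08, -0.13 and 1.4. Of all 26937 genes, 12341 were higher in pair 1, 13425 in pair 2 and 12188 in pair 3. The 5 wood genes that were higher in pair 2 were PtrCSE2, PtrCCoAOMT1, PtrCAD1, PtrCesA18 and PtrIRX10-1. They were higher in all 3 pairs, as were 5665 of all 26937 genes. That pattern was thus no more frequent among the 31 wood genes than among all genes. Among the 3-day libraries, replicate 2 had the highest level in 27 of the 31 genes, against 35.6% of all genes, and 33.8% of all genes had their lowest 3-day level there. Among the 7-day libraries, replicate 2 had the lowest level in 25, against 37.6% of all genes. With both libraries numbered 2 left out, the median of the monolignol genes was 1.27 and that of the CesA genes 1.47. The quasi-likelihood test then called 0 genes over the whole table. These medians were 0.95 and 1.28 with only 3-day replicate 2 left out, and 0.59 and 0.60 with only 3-day replicate 3 left out. Over all single libraries left out they ranged from 0.59 to 0.97 and from 0.60 to 1.28, against 0.75 and 0.87 in the main fit. PtrActin, an actin gene for which the study lists RT-qPCR primers and which it used as the control in chromatin immunoprecipitation, was at 679, 733 and 769.9 CPM at 3 days and at 849, 706 and 795 CPM at 7 days, and its log2 fold change of 0.11 turned to -0.080 without scaling factors.

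Genes that respond to the 2 factors in isolated cells were followed next. In the study, PtrHSFB3-1 or PtrMYB092 was overexpressed in protoplasts of differentiating xylem, and the genes raised there were listed by identifier. Only the membership of those lists was used. A gene counts as raised where its listed fold is over 2, and identifiers were kept where the count table holds them, so the list sizes are those of this selection. Of 1001 identifiers on the PtrMYB092 list, 798 were tested here. They had a median log2 fold change of 0.19 against -0.06 for all genes, and 514 of them (64.4%, against 44.7%) were positive. At an unadjusted p under 0.05, 173 were higher (21.7%, against 9.5%) and 44 lower (5.51%, against 10.2%). DESeq2 called 71 higher and 9 lower, where it called 3.66% and 2.22% of all genes, and the exact test 36 and 6, where it called 1.81% and 1.46%. Without the 23 wood genes on the list, its median was 0.18. The lists came from the same study but not from these libraries.

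The PtrHSFB3-1 list lay closer to all genes, and the difference between the lists was not tested. Of its 1140 identifiers, 634 were tested, and their median was -0.09, with 289 positive (45.6%, against 44.7%) and 345 negative. At an unadjusted p under 0.05, 80 were higher (12.6%, against 9.5%) and 50 lower (7.89%, against 10.2%). DESeq2 called 36 of the 634 higher and 15 lower, where it called 3.66% and 2.22% of all genes. The exact test called 21 and 10, where it called 1.81% and 1.46%. The 133 tested genes on both lists had a median of 0.27, those on the PtrMYB092 list alone 0.18 and those on the PtrHSFB3-1 list alone -0.17. The lists also differed in level, with a median over genes of 16.2 CPM for the PtrMYB092 list and 6.30 CPM for the PtrHSFB3-1 list. In each class of mean CPM the median of the PtrMYB092 list was above that of all genes, for example 0.56 against 0.20 between 100 and 1000 CPM. The PtrHSFB3-1 list was above it in the 3 classes over 20 CPM and also, by little, between 1 and 5 CPM. At matched level the lists were close in some classes: 29.1% of the PtrHSFB3-1 list and 30.2% of the PtrMYB092 list were higher at an unadjusted p under 0.05 between 20 and 100 CPM, and 42.1% and 41.2% between 100 and 1000 CPM, where their medians were 0.52 and 0.56. By same-numbered pair, the PtrMYB092 list had medians of 0.31, -0.05 and 0.36. Without scaling factors its median was 0.0047 and that of all genes -0.24, and the distance between them stayed at 0.25.

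**Figure D5:**
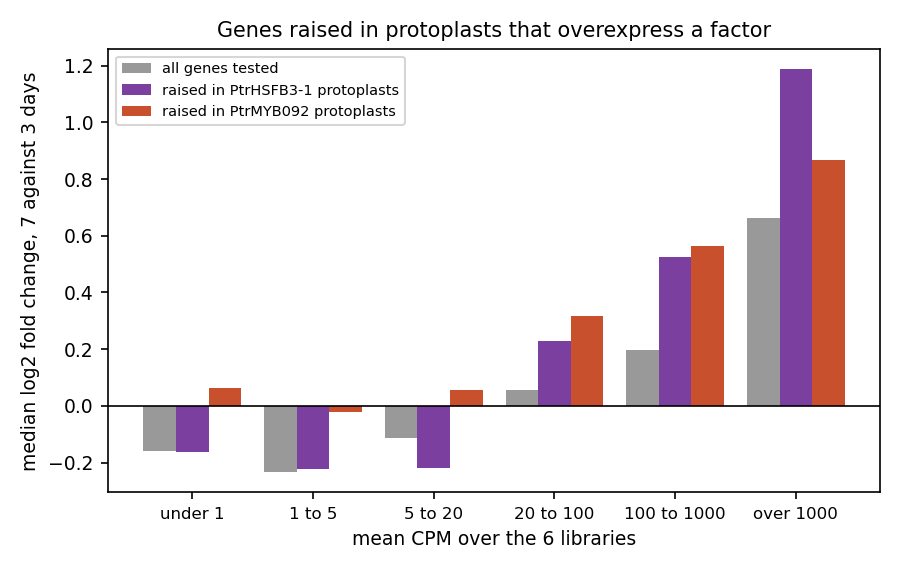
Median log2 fold change at 7 against 3 days (y axis) in 6 classes of mean CPM (x axis) for all genes tested and for the genes raised in protoplasts that overexpress PtrHSFB3-1 or PtrMYB092. Bars of the PtrMYB092 list stand above those of all genes in every class, such as 0.32 against 0.05 between 20 and 100 CPM, and the class over 1000 CPM holds only 2 genes of the PtrHSFB3-1 list and 8 of the PtrMYB092 list.

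Outside the named genes only identifiers can be given. The gene model with the second highest mean CPM over the 6 libraries, Potri.006G136700, was at 3613, 5089 and 3615 CPM at 3 days and at 12862, 7076 and 12211 CPM at 7 days. The groups did not overlap, it was higher in pair 2 as well, and its log2 fold change was 1.38 (SE 0.43, adjusted p = 0.197 by the quasi-likelihood test, 0.0021 by the exact test and 0.00032 by DESeq2). The one with the highest mean, Potri.013G151400, went from a mean of 6127 ± 2145 to 10255 ± 363 CPM (SD, n = 3 each), again without overlap, and no test called it. Their gene products are not named in the files used here.

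Among genes called by both the exact test and DESeq2, without overlap and with at least 5 CPM in the higher group, the extremes were chosen after their values were seen. Potri.018G069700 had the highest log2 fold change, 4.51 (SE 1.03), and was at 0.0445, 0.521 and 1.69 CPM at 3 days and at 19.9, 3.69 and 28.6 CPM at 7 days. Potri.010G150600 had the lowest, -6.16 (SE 1.07), and was at 6.32, 1.04 and 8.43 CPM and then at 0.151, 0.0467 and 0 CPM, from 371 counts over the 3-day libraries and 5 over the 7-day libraries. The model with the adjacent identifier, Potri.010G150500, was at 146, 32.7 and 148 CPM at 3 days and at 13.6, 8.40 and 12.9 CPM at 7 days, a log2 fold change of -3.23 (SE 0.56). It was lower in each same-numbered pair and was called by the exact test (adjusted p = 1.38e-05) and by DESeq2 (5.85e-07). It was also the 1 gene that the quasi-likelihood test called once 3-day replicate 2 was left out, with a log2 fold change of -3.66 and an adjusted p of 0.0424. In both models 3-day replicate 2 was the lowest of the 3-day libraries and thus the nearest to the 7-day group.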

How the data were processed

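Per the labels, RNA from stem differentiating xylem was sequenced, and TopHat, with no version, is the aligner in the submitters' processing notes. The authors deposited raw read counts per gene model, as whole numbers without normalization. How reads were counted (tool, strand, reads with several matches) is not given in the sources used here, so close copies, overlapping genes and antisense genes are uncertain. Groups and replicate numbers came from the sample titles, and 0 columns were left unmatched. Total counts were 20888144 to 29539805 per library, and 1 count was worth up to 0.0467 CPM, which limits weakly expressed genes.

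The analysis used R 4.3.3 with edgeR 4.0.16. The 26937 genes kept by filterByExpr held 99.8% or more of every library's counts, and scaling used TMM factors of 0.895 to 1.12. A quasi-likelihood model of the 6 bent libraries, with no covariate, was tested two-sided, with Benjamini-Hochberg adjustment over all genes kept. A standard error is the size of the log2 fold change over the root of F. Replicates varied with a common dispersion of 0.0839, or 29.0% as a biological CV. With the study's own cutoffs (fold above 2 or below 0.8, adjusted p under 0.05) it gave 0 genes.

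No pair of libraries was alike within sampling noise: in each group, chi-square per gene was 22.0 to 92.4. Each library's departure from its group mean (log CPM) correlated with that of the same-numbered library of the other group by 0.272, 0.235 and 0.189 for replicates 1 to 3. All were over 0.1, and libraries with different numbers gave -0.262 to 0.0246. Departures cancel out within a group, so these values are not independent and cannot show that the numbers pair the libraries. The labels do not say what the numbers mark, and results by same-numbered pair are descriptive. The replicate number entered as a block among the alternatives. The others were RLE factors, library totals, 2 other filters, the exact test, DESeq2 1.42.0, all 9 libraries, thinning to the lowest library total, and leaving out each library. Leaving out both libraries numbered 2 was added after seeing the data.

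The comparison, the genes and the lists were chosen with earlier results of these data known. Names of 31 wood genes and PtrActin, with primers, came from the study, as did the protoplast lists. Named genes are all of these, the 2 IDs with the highest mean CPM, and the highest and lowest log2 fold change among called genes. As the main test called 0, the last came from the genes called by both other tests, and Potri.010G150500 was added because 1 alternative called it. The RefSeq table (assembly P.trichocarpa_v4.1) matched 0 IDs, so markers of other cell types, lists by gene description, coordinates and GC content were not analysed here.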

Additional observations from a re-analysis of the deposited data

How the results depend on the processing

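The quasi-likelihood test called 0 genes in the main fit, and 0 with RLE factors, library totals, no filter, a stricter filter, all 9 libraries, thinned counts and without both libraries numbered 2. With the replicate number as a block it also called 0 genes (smallest adjusted p 0.154, 5620 genes at an unadjusted p under 0.05 against 5303), and the block changed no call. DESeq2 called 1494 genes (930 higher, 564 lower, 923 at the thresholds of the study) and the exact test 882 (488 higher, 394 lower, 660 at those thresholds). With each library left out in turn, called genes ranged from 0 to 1, higher calls were 0, lower calls ranged from 0 to 1 and calls at the thresholds of the study from 0 to 1, the 1 coming without 3-day replicate 2. Genes at an unadjusted p under 0.05 then ranged from 2498 to 6824, the higher ones from 1213 to 3137 and the lower ones from 1285 to 3687, and the cause was not tested.

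With RLE factors 2857 genes were higher at an unadjusted p under 0.05 and 2427 lower, and the all-gene median was -0.03. With library totals the counts at an unadjusted p under 0.05 were 1365 higher and 4593 lower, the all-gene median was -0.24, and the medians were -0.26 for the PtrHSFB3-1 list and 0.0047 for the PtrMYB092 list. That scaling also reversed PtrHSFB3-1 (-0.15), PtrHCT1 (-0.092) and PtrActin (-0.080). Without both libraries numbered 2, 4199 genes were higher at an unadjusted p under 0.05 and 3467 lower, and medians were 1.27 for the monolignol genes and 0.38 for the PtrMYB092 list. With single libraries left out, the median of the monolignol genes ranged from 0.59 to 0.97 and that of the CesA genes from 0.60 to 1.28. PtrHSFB3-1 then ranged from -0.24 to 0.20, Ptr4CL5 from -0.45 to 0.17 and PtrHCT1 from -0.028 to 0.27. The other 28 wood genes kept their sign under all 16 alternatives. The main test called no gene, whatever the size of its difference. Potri.010G150600 at -6.16 and Potri.018G069700 at 4.51 both had an adjusted p of 0.188 by the quasi-likelihood test. With counts thinned to the smallest library, the smallest adjusted p of that test was also 0.188.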
